A study of Mus musculus with 18 samples.

Results

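The 10 genes described here, Pecam1, Cdh5, Kdr, Flt1, Tek, Tie1, Egfl7, Vwf, Emcn and Plvap, are endothelial identity genes, chosen by name as a reading of the blood vessels in a tumor, and they are 10 of the 41079 genes in the deposited table. All 10 were found. Their levels were followed over 18 B16F10 tumors in 6 groups of 3. B16F10 is a mouse melanoma cell line, and by the sample labels 100000 cells were placed under the skin, on the right flank, in C57BL/6 females. The study's methods text gives a larger cell number, so the number injected is unsettled. From day 6, at about 50 mm3, the tumors were injected every 2 days, and RNA was taken 48 h after the last injection.

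All tumors shared the cell line, the host strain and the injection route. The control group received PBS. The Free PS473 group received PS473 alone, a Pistol ribozyme (a small RNA that cuts other RNA) designed to cleave the mRNA of the immune checkpoint ligand PD-L1. The PS473@CPs group received PS473 on cationic polymers. The NKMOF-101-[Mn] group received a manganese metal–organic framework with no RNA in it, the M5@NKMOF-101-[Mn] group received the framework carrying M5, a catalytically inactive mutant ribozyme, and the PS473@NKMOF-101-[Mn] group received the framework carrying PS473. The titles of the last 3 tumors write NKMOF-102, while the treatment text names only NKMOF-101-[Mn], so they were placed in that group. The labels describe each tumor as a sample of its own and give no mouse numbers, so the p-values below measure the spread between tumors.

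Endothelial cells line blood vessels. Vascular endothelial growth factors act on them through the receptors encoded by Kdr and Flt1, and angiopoietins act through the receptor encoded by Tek, with Tie1 as its partner. Junction proteins such as those of Cdh5 and Pecam1 hold neighbouring endothelial cells together. In a growing tumor, vessels are recruited from the host, so in a graft of melanoma cells these transcripts mark host tissue as a rule.

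Each library held 17212000 to 28401000 fragments assigned to genes, a depth worked out from the smallest steps in its values, and 21269 to 24473 genes above 0. Values are FPKM, fragments scaled to gene length and to library depth, so comparing levels of different genes rests on the listed gene lengths. For the 10 genes these ran from 1711 bases for Emcn to 19064 bases for Flt1. The transcript of PD-L1, Cd274, ranged over 9.74 to 32.9 FPKM after PS473@NKMOF-101-[Mn] and over 12.3 to 21.5 FPKM after PBS, a difference of 0.13 on the log2 scale (SE 0.34, limma adjusted p = 0.993). The target therefore did not separate these groups, and it gives no check of the labels. Melanoma genes were high in every tumor. Dct, a pigment enzyme, was at 2087 FPKM or more in each.

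Sequences upstream of the members are shown as a description, and no link between them and the levels was tested. RefSeq promoter windows of the mouse build GRCm38.p6, from 250 bases before to 50 after a transcription start, were matched by symbol to 6 of the 10 members (Egfl7, Emcn, Flt1, Kdr, Tek and Tie1), in 8 windows, 3 of them for Egfl7. That build differs from GRCm39, the build named in the submitters' processing notes. Windows of 4 members are given 5′ to 3′, with each match to the core ETS motif in capitals, read as CNGGAA on either strand (TTCCNG is the same motif on the other strand). ETS factors are transcription factors with known roles in endothelial gene expression.
Tie1, chr4:118489800-118490099, minus strand: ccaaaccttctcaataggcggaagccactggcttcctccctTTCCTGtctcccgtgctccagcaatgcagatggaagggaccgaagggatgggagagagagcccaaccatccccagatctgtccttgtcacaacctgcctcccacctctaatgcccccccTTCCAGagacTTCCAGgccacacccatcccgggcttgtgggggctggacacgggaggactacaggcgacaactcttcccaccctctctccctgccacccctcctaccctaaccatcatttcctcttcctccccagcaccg
Kdr, chr5:75978406-75978705, minus strand: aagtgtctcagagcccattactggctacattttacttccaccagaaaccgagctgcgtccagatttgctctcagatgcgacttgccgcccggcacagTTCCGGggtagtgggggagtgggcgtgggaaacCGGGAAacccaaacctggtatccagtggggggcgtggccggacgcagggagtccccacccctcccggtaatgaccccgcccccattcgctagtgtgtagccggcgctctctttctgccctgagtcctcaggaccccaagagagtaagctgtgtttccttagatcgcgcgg
Tek, chr4:94739039-94739338, plus strand: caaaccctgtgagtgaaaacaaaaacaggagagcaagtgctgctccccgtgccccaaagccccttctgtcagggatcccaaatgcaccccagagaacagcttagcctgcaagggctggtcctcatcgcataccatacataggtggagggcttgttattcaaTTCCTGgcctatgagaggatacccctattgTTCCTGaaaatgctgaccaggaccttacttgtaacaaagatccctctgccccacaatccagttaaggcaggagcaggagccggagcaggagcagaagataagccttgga
Egfl7, chr2:26583615-26583914, plus strand: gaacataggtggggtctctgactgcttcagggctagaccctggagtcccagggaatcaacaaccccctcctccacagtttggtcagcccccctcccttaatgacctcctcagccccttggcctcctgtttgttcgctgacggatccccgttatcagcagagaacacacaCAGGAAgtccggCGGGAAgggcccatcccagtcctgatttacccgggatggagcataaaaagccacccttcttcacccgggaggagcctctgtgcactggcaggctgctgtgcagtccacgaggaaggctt
CNGGAA was present in 7 of the 8 member windows (87.5%) and in 61.7% of all 32851 windows of that length. The window without it is another window of Egfl7, which is not shown. The longer form CNGGAAGT, each match of which also holds the core, was present in 2 of the 8 windows, the Tie1 window and the Egfl7 window shown, against 9.53% of all windows. The GATA motif AGATAA was found in the Tek window only, 1 of 8 against 11.2% of all, and the FOX motif TAAACA in 0 of 8 against 13.4%. These counts describe letters in a window, and no binding was measured.

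The members covered a wide range of levels. Egfl7, which encodes a secreted protein of the vessel wall, was highest, with a mean of 17.1 FPKM over the 18 tumors (SD 5.28). Plvap, a component of the diaphragms of endothelial pores and caveolae, followed at 11.1 FPKM (SD 8.13), then Pecam1 at 8.20 FPKM (SD 5.88) and Cdh5 at 5.46 FPKM (SD 4.21). Emcn, a sialomucin of the endothelial surface, averaged 3.91 FPKM and Vwf, the clotting glycoprotein that endothelial cells store and release, averaged 3.01 FPKM. The 4 receptors were lowest, with Tie1 at 2.85 FPKM, Kdr at 2.11 FPKM, Flt1 at 1.55 FPKM and Tek at 0.230 FPKM.

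This order held in single tumors to different degrees. Pecam1 was above Cdh5, Kdr above Flt1, and Flt1 above Tek in 18 of 18 tumors. The order of Kdr and Flt1 rests on their listed gene lengths, 8885 and 19064 bases. In estimated fragments Flt1 was above Kdr in every tumor, with medians of 541 and 324. Emcn exceeded Vwf in 11 of 18 and Vwf exceeded Tie1 in 13 of 18, so these neighbours in the order cannot be ranked beyond their spread. Tek was above 0 in every tumor, but its estimated fragment number was 4 to 116 for each tumor, against 105 to 1362 for Kdr and 107 to 2483 for Cdh5. Tek was the 1 member under the minimum mean of 1 FPKM for testing, and 9 of the 10 members were tested.

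Tumors within a group differed more than the group means did. Over the 9 tested members the coefficient of variation across the 18 tumors had a median of 71.0%, against 14.5% over the 12357 genes tested. Differences between the 6 groups made up 27.7% of a member's variance on the log2 scale (median of 9), and 23.3% of the variance of all genes tested (median). Counting error was small beside this spread. Even at its lowest, Cdh5 rested on about 107 fragments, a counting error of 9.67%, while its highest tumor stood 16.3-fold above its lowest.

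**Figure D1:**
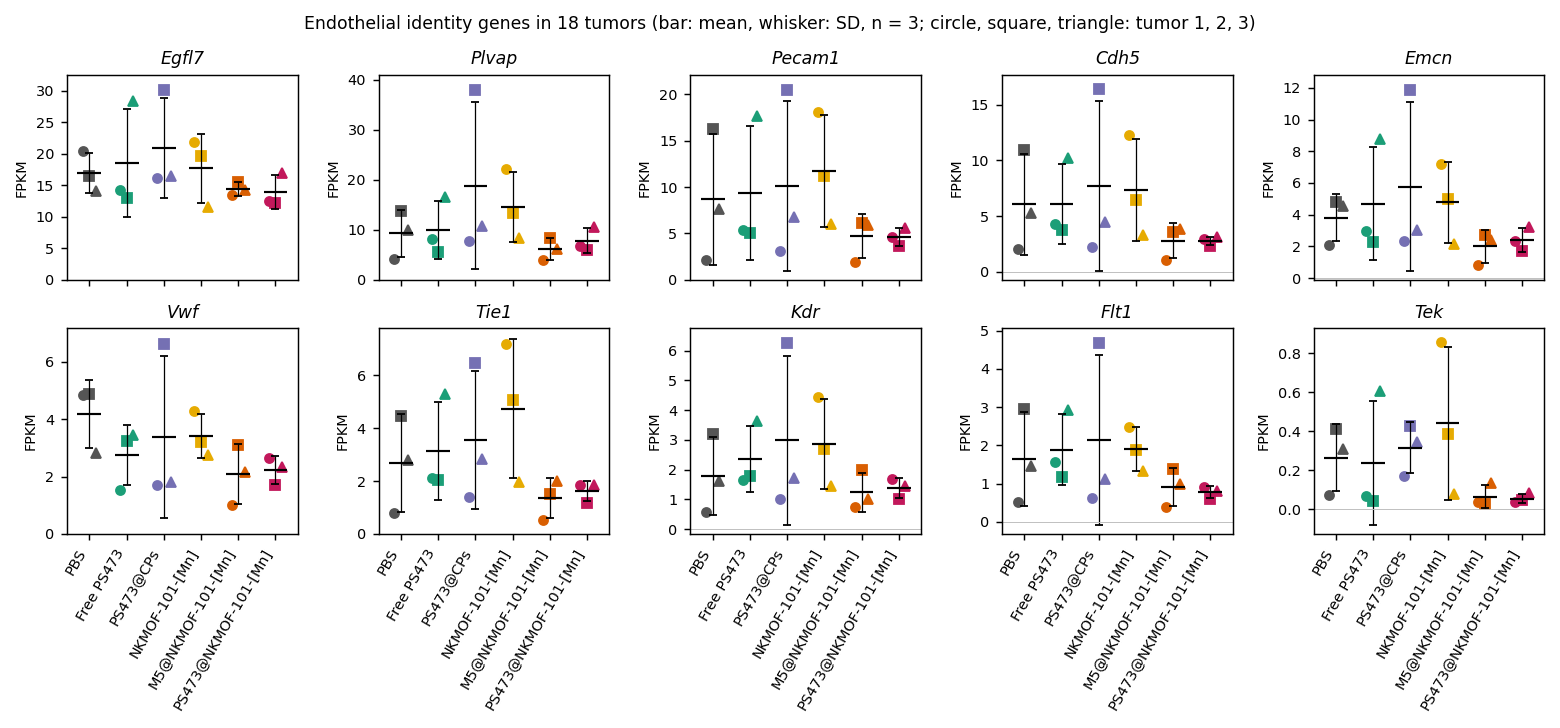
FPKM of the 10 members (one panel each, y axis linear and different in each panel) in the 6 groups, with 1 point for each tumor, the group mean as a bar and the SD as a whisker (n = 3). Tumor 2 of PS473@CPs is the highest point in 8 of the 10 panels, and the 3 PS473@NKMOF-101-[Mn] tumors lie close together near the bottom of most panels.

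Among the junction genes, Cdh5, the VE-cadherin of endothelial contacts, was at 2.00, 11.0 and 5.24 FPKM in the PBS tumors, at 4.29, 3.71 and 10.2 FPKM in the Free PS473 tumors, and at 2.20, 16.4 and 4.50 FPKM in the PS473@CPs tumors. In the framework groups Cdh5 was at 12.3, 6.48 and 3.26 FPKM for NKMOF-101-[Mn], at 1.01, 3.55 and 3.83 FPKM for M5@NKMOF-101-[Mn], and at 2.91, 2.34 and 3.08 FPKM for PS473@NKMOF-101-[Mn]. The PS473@NKMOF-101-[Mn] values all lay under the lowest Free PS473 and the lowest NKMOF-101-[Mn] tumor, but PBS tumor 1 and PS473@CPs tumor 1 were lower still.

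Pecam1, the platelet and endothelial adhesion molecule CD31, repeated the pattern at a higher level. It was at 2.14, 16.2 and 7.64 FPKM in PBS, at 5.38, 5.08 and 17.7 FPKM in Free PS473, and at 3.12, 20.5 and 6.77 FPKM in PS473@CPs. With the framework it was at 18.1, 11.2 and 5.97 FPKM for NKMOF-101-[Mn], at 1.96, 6.18 and 5.95 FPKM for M5@NKMOF-101-[Mn], and at 4.57, 3.61 and 5.62 FPKM for PS473@NKMOF-101-[Mn]. The last group was below NKMOF-101-[Mn] without overlap and overlapped the other 4 groups.

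The growth factor receptor genes had low levels, and both were highest in PS473@CPs tumor 2. Kdr (VEGF receptor 2) ran from 0.590 FPKM in PBS tumor 1 to 6.25 FPKM in PS473@CPs tumor 2, with a mean of 1.39 FPKM (SD 0.339, n = 3) in PS473@NKMOF-101-[Mn] and 1.80 FPKM (SD 1.31, n = 3) in PBS. Flt1 (VEGF receptor 1) was at 0.916, 0.608 and 0.803 FPKM in PS473@NKMOF-101-[Mn], at 2.50, 1.89 and 1.33 FPKM in NKMOF-101-[Mn], and at 1.57, 1.17 and 2.93 FPKM in Free PS473. It was at 0.523, 2.95 and 1.47 FPKM in PBS, at 0.624, 4.69 and 1.12 FPKM in PS473@CPs, and at 0.398, 1.39 and 0.988 FPKM in M5@NKMOF-101-[Mn]. Flt1 in PS473@NKMOF-101-[Mn] was thus under every Free PS473 and NKMOF-101-[Mn] tumor, and it overlapped the other 3 groups.

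Of the angiopoietin receptor pair, Tie1 was at 1.83, 1.17 and 1.86 FPKM in PS473@NKMOF-101-[Mn], at 7.21, 5.07 and 1.97 FPKM in NKMOF-101-[Mn], and at 0.524, 1.52 and 2.01 FPKM in M5@NKMOF-101-[Mn]. In the groups without framework it was at 0.773, 4.47 and 2.80 FPKM for PBS, at 2.10, 2.06 and 5.30 FPKM for Free PS473, and at 1.40, 6.46 and 2.84 FPKM for PS473@CPs. Its separation from NKMOF-101-[Mn] was narrow, 1.86 against 1.97 FPKM at the nearest tumors. Tek, with few fragments, was at 0.0351, 0.0467 and 0.0813 FPKM in PS473@NKMOF-101-[Mn] and at 0.172, 0.428 and 0.346 FPKM in PS473@CPs, which did not overlap. Its highest tumor was NKMOF-101-[Mn] tumor 1 at 0.859 FPKM, and its lowest M5@NKMOF-101-[Mn] tumor 2 at 0.0263 FPKM.

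The surface genes Plvap and Emcn reached their highest level in PS473@CPs tumor 2, at 38.0 and 11.9 FPKM. Plvap was at 6.85, 6.05 and 10.7 FPKM in PS473@NKMOF-101-[Mn] and at 4.23, 13.7 and 9.89 FPKM in PBS, and the groups overlapped. Emcn lay between 1.72 and 3.22 FPKM in PS473@NKMOF-101-[Mn] and between 2.10 and 4.81 FPKM in PBS, also with overlap.

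Egfl7 and Vwf varied least. Egfl7 was at 20.4, 16.5 and 14.1 FPKM in PBS, at 14.3, 12.9 and 28.4 FPKM in Free PS473, and at 16.1, 30.2 and 16.5 FPKM in PS473@CPs. With the framework it was at 21.9, 19.7 and 11.5 FPKM for NKMOF-101-[Mn], at 13.4, 15.6 and 14.3 FPKM for M5@NKMOF-101-[Mn], and at 12.4, 12.3 and 17.0 FPKM for PS473@NKMOF-101-[Mn]. No tumor was below 11.5 FPKM, and the highest was 2.62-fold above the lowest, against 6.59-fold for Vwf and 9.73-fold to 32.7-fold for the other 8 members. Vwf was at 4.86, 4.88 and 2.83 FPKM in PBS and at 2.66, 1.70 and 2.35 FPKM in PS473@NKMOF-101-[Mn], which did not overlap. It was at 1.54, 3.26 and 3.44 FPKM in Free PS473, at 1.71, 6.64 and 1.80 FPKM in PS473@CPs, at 4.27, 3.21 and 2.75 FPKM in NKMOF-101-[Mn] and at 1.01, 3.11 and 2.17 FPKM in M5@NKMOF-101-[Mn]. Vwf was the only member whose highest group mean was that of PBS, at 4.19 FPKM (SD 1.18, n = 3).

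Single tumors carried the extremes of most members. PS473@CPs tumor 2 was the highest of 18 in 8 members and NKMOF-101-[Mn] tumor 1 in the other two, while M5@NKMOF-101-[Mn] tumor 1 was the lowest in 7. The mean of the 10 members on the log2(FPKM + 1) scale was 3.42 in PS473@CPs tumor 2 and 1.25 in M5@NKMOF-101-[Mn] tumor 1. PS473@NKMOF-101-[Mn] had the narrowest range of the 6 groups in 8 of 10 members, for example 1.31-fold from lowest to highest for Cdh5, where PS473@CPs spanned 7.45-fold. For all 10 members, the 2 loaded framework groups had the lowest of the 6 means, M5@NKMOF-101-[Mn] for 5 members and PS473@NKMOF-101-[Mn] for the other 5, whereas the empty framework had the highest mean for Pecam1, Tie1 and Tek. That order was noticed in the values and was given no test of its own. For the narrow ranges and for the order of means, the share over all genes was not worked out. The members varied together, so the members in these counts are not separate observations. In bulk tumor RNA, fewer endothelial cells and less of these transcripts in each cell cannot be told apart.

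The members varied together from tumor to tumor. Over the 18 tumors, the 45 pairs of members had Pearson correlations of log2(FPKM + 1) between 0.50 and 0.98 with a median of 0.84 (Spearman 0.81), and 20 pairs were above 0.9. Around the group means the median was 0.80, so tumors of the same group shared this variation too. Without the 2 tumors farthest from the median it was 0.82. Cdh5 (0.98), Emcn (0.97) and Pecam1 (0.96) followed the mean of the other 9 members most closely. Vwf (0.69) and Egfl7 (0.74) did so least, and without PBS tumor 1 their correlations were 0.85 and 0.83. Other removals lowered them. Without PS473@CPs tumor 2 they were 0.57 and 0.63, and without the 2 tumors farthest from the median 0.50 and 0.56. All points of a correlation come from whole-tumor libraries, which hold host tissue as well as melanoma cells. The part of the host tissue share in these correlations was not tested.

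PBS tumor 1 and M5@NKMOF-101-[Mn] tumor 1 had ratios between members that stood apart from those of most tumors. Cdh5, the divisor in the ratios below, was low in both, at 2.00 and 1.01 FPKM. In PBS tumor 1 the Vwf level was 2.43 times the Cdh5 level. The next highest ratio was 1.00, in M5@NKMOF-101-[Mn] tumor 1, and the median of the 18 tumors was 0.647. Egfl7 in PBS tumor 1 was 10.2 times Cdh5, exceeded only by M5@NKMOF-101-[Mn] tumor 1 at 13.3, with a median of 3.60. M5@NKMOF-101-[Mn] tumor 1 also had the highest ratios to Cdh5 for Kdr (0.730) and Plvap (3.87). The ratio of Pecam1 to Cdh5 varied least, from 1.07 in PBS tumor 1 to 1.95 in M5@NKMOF-101-[Mn] tumor 1. It had a coefficient of variation of 14.9% (66.8% for Egfl7 and 65.8% for Vwf). Tie1, Flt1 and Emcn were not far above it, at 18.8%, 18.9% and 21.8%, and Kdr and Plvap were at 27.6% and 31.6%. PBS tumor 1 also had the highest mean of the 5 red blood cell genes, 10.2 on the log2(FPKM + 1) scale, led by the globin genes Hba-a1 and Hbb-bs, where the median tumor was at 7.03. All 5 genes were detected in every tumor. Free PS473 tumor 1 was at 9.51 for this mean, with Vwf at 1.54 and Cdh5 at 4.29 FPKM. M5@NKMOF-101-[Mn] tumor 1 was at 5.53, below the median. The part of blood content in these ratios was not tested.

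**Figure D2:**
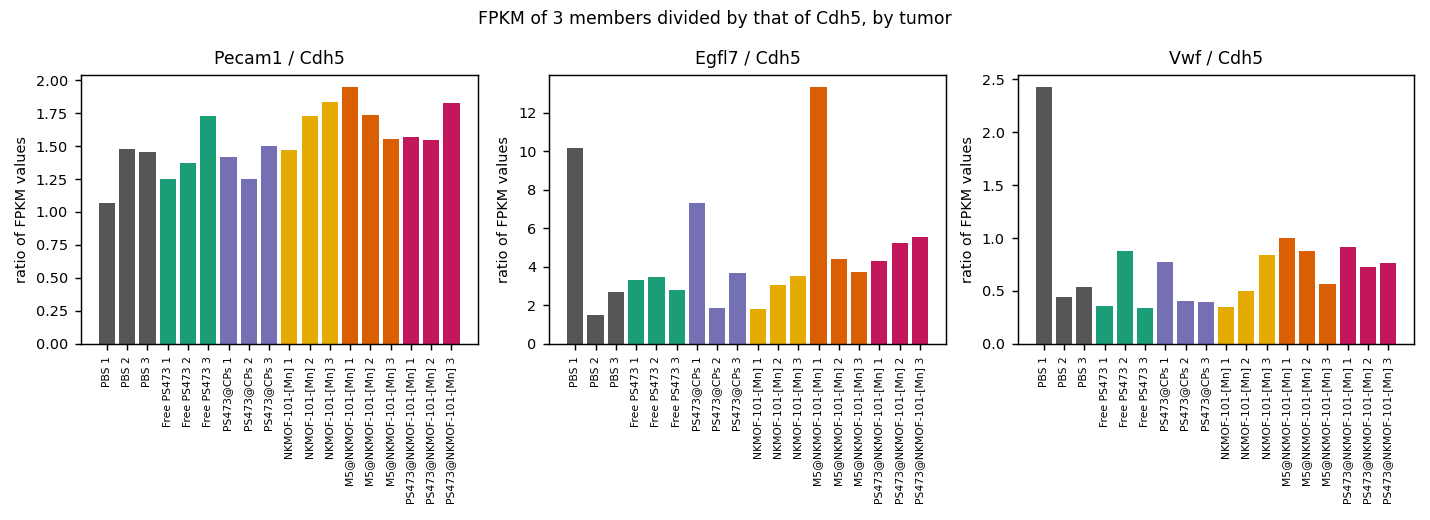
FPKM of Pecam1, Egfl7 and Vwf divided by the FPKM of Cdh5 in each of the 18 tumors, with bars coloured by group. The Pecam1 ratio stays between 1.07 and 1.95, whereas the Vwf ratio of PBS tumor 1 (2.43) stands above all others, and the Egfl7 ratio is highest in M5@NKMOF-101-[Mn] tumor 1 and PBS tumor 1.

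Among the other genes tested, those with the pattern most like the mean of the members were Adgrl4, S1pr1, Rasip1, Esam, Podxl, Cd34, Robo4 and Dll4, with Pearson correlations from 0.98 down to 0.97 over 18 tumors. S1pr1 encodes a sphingosine 1-phosphate receptor, Esam a junction protein, Cd34 a surface sialomucin and Dll4 a Notch ligand. Adgrl4, the nearest, ran from 0.170 FPKM in M5@NKMOF-101-[Mn] tumor 1 to 4.53 FPKM in PS473@CPs tumor 2, the same tumors that bound most members. Of 12348 genes compared, 47 (0.381%) had a correlation above 0.9, and the median gene was at -0.055.

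Lists of genes known from other parts of the vessel and from other cells were followed in the same way, each as the mean log2(FPKM + 1) of its genes. The 16 other pan-endothelial genes had a correlation of 0.99 with the members over 18 tumors, the 12 endothelial transcription factors 0.93, and the 12 tip cell and Notch genes 0.93. Some of the more highly expressed genes of the vessel and ligand lists followed the members less closely. Eng (endoglin, a TGF-beta co-receptor) at a mean of 55.3 FPKM had a correlation of 0.12, and Ets1, an ETS transcription factor at 87.8 FPKM, had -0.43. The ligand genes Vegfa, at a mean of 53.0 FPKM, and Vegfb, at 83.2 FPKM, had correlations of 0.050 and -0.55. Klf2, a flow-responsive transcription factor, averaged 11.2 FPKM (0.35), Icam2, an adhesion molecule, 5.74 FPKM (0.44), and the neuropilin genes Nrp1 and Nrp2 were at 11.9 FPKM (0.23) and 7.26 FPKM (0.24). Others at comparable levels did follow them, such as Angpt2, an angiopoietin, at 10.7 FPKM (0.85), Esm1, a tip cell gene, at 6.24 FPKM (0.87) and Apln, the apelin gene, at 5.93 FPKM (0.87). The 10 angiogenic ligand genes as a list were at 0.85. Without the 2 tumors farthest from the median, the other pan-endothelial genes were at 0.98 and the transcription factors at 0.85. The tip cell and Notch genes were then at 0.87 and the ligand genes at 0.76.

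Lists of the other cell types present also varied with the members. Pericyte and smooth muscle genes, led by Acta2 and Rgs5, had a correlation of 0.87 over 18 tumors, fibroblast genes, led by the collagens Col1a1 and Col1a2, 0.79, and lymphatic endothelial genes, led by Pdpn and Ccl21a, 0.77. Without the 2 tumors farthest from the median these were 0.73, 0.66 and 0.53. In the lymphatic list, Prox1, at a mean of 0.350 FPKM, had a correlation of -0.024, while the rest were at 0.53 (Ccl21a) to 0.93 (Flt4). Platelet genes, led by Pf4 and Ppbp, were at 0.82, although 1 of 6 reached the minimum for testing. Adipocyte genes, led by Fabp4 and Cd36, were at 0.81, and the adhesion genes led by Icam1 and Vcam1 at 0.81. In the adipocyte and in the adhesion list, 2 of 6 genes reached that minimum. The adipocyte genes below it, Adipoq, Plin1, Cidec and Lep, had correlations of 0.70, 0.63, 0.67 and 0.55. Leukocyte genes, led by Laptm5 and Cd52, followed less closely at 0.44, the red blood cell genes were at 0.12 and the skeletal muscle genes, led by Acta1 and Mylpf, at 0.059. Melanoma genes, led by Dct and Pmel, ran the other way at -0.66, within a narrow range of 8.29 to 8.95 on the log2(FPKM + 1) scale. Without the same 2 tumors, platelet genes were at 0.70, adipocyte genes at 0.76 and adhesion genes at 0.73. Leukocyte genes were then at 0.28, red blood cell genes at 0.15, skeletal muscle genes at 0.042 and melanoma genes at -0.57.

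Skin epithelium varied widely between tumors. Its 9 genes, led by the basal keratins Krt14 and Krt5, had a mean of 0.065 to 6.95 on the log2(FPKM + 1) scale and a correlation of 0.65 with the members (0.44 without the 2 tumors farthest from the median). In 8 tumors the skin mean was under 0.3, and there the member mean still ranged from 1.25 to 2.59. In the other 10 tumors, with skin means of 1.15 to 6.95, the member mean ranged from 1.63 to 3.42. PS473@CPs tumor 2 had the highest skin mean, but NKMOF-101-[Mn] tumor 2, with a skin mean of 0.079, had the fifth highest member mean. Krt14, Krt5, Krt1, Krt10, Krt15 and Krtdap were listed at 0 in at least 1 tumor.

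**Figure D3:**
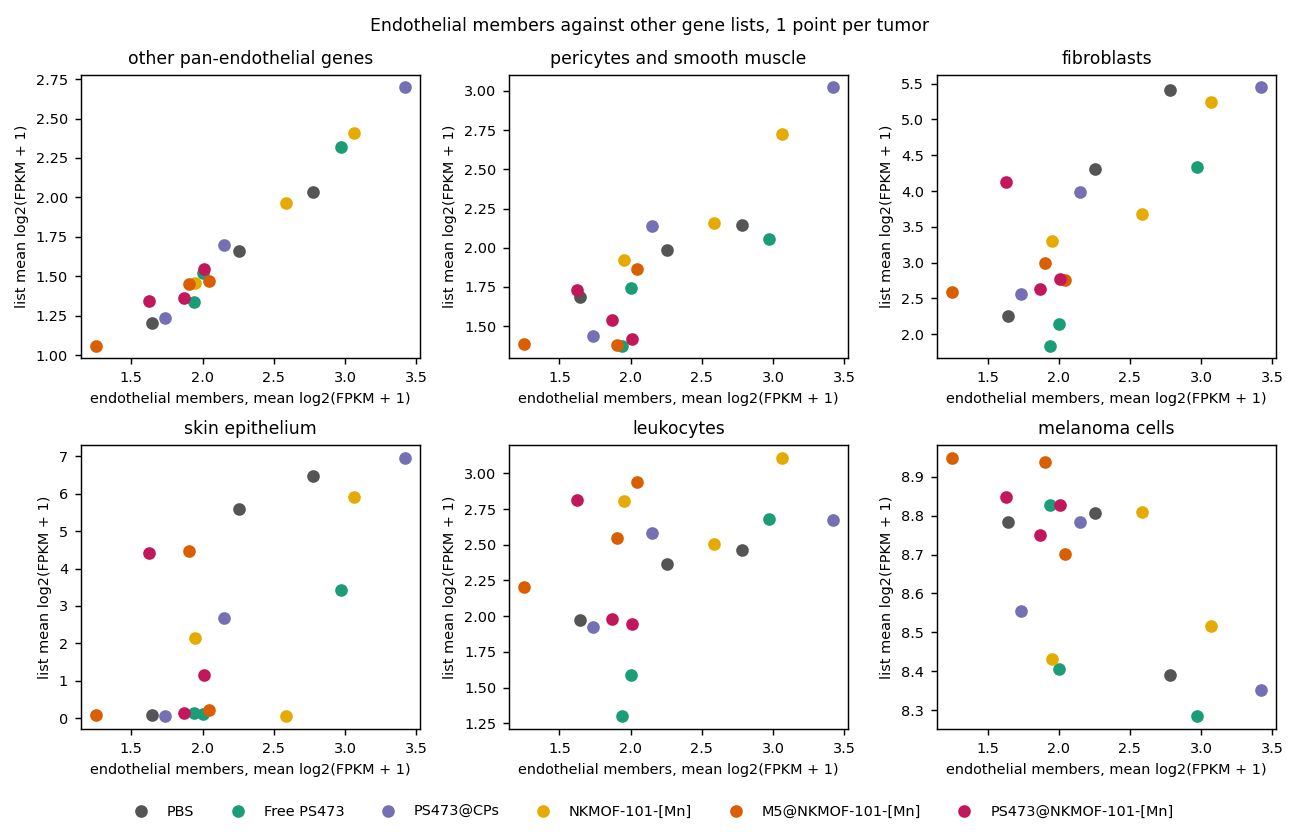
Mean log2(FPKM + 1) of 6 other gene lists (y axis) against the mean of the 10 members (x axis), with 1 point for each of the 18 tumors, coloured by group. The other pan-endothelial genes follow the members along a line (correlation 0.99), the skin genes range from 0.065 to 6.95 with 8 tumors near 0, and the melanoma genes run lower where the members are higher.

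The first comparison asked how vessel transcripts in PS473@NKMOF-101-[Mn] tumors stood to those in PBS tumors. All 9 tested members had lower values with PS473@NKMOF-101-[Mn], by a median of -0.46 on the log2 scale (range -0.69 for Cdh5 to -0.13 for Plvap), while all genes tested had a median of -0.014. No member passed. In limma on log2(FPKM + 1) with adjustment over the 12357 genes, 0 of 9 had an adjusted p under 0.05, and 0 of 9 an unadjusted p under 0.05, against 0% and 2.1% of all genes. Vwf, at -0.66 (SE 0.37, limma adjusted p = 0.993), was nearest to passing. It was also the 1 member of 10 that lay without overlap below PBS, as 1.92% of the genes tested did, and 0 of 10 lay above it (2.74%). When only the PBS and PS473@NKMOF-101-[Mn] tumors were fitted, Vwf alone had an unadjusted p under 0.05, as 1.33% of all genes did. The median of the members was -0.13 without PBS tumor 2 and -0.75 without PBS tumor 1. Without PBS tumor 2, Kdr, Pecam1, Plvap and Tie1 turned to 0.22, 0.090, 0.19 and 0.0033, and Plvap was at 0.020 without PS473@NKMOF-101-[Mn] tumor 2. With the skin mean as a covariate, an alternative added after the values were seen, the same 4 genes turned to 0.18, 0.046, 0.27 and 0.017. The skin mean was 0.104 to 6.48 in PBS and 0.152 to 4.42 in PS473@NKMOF-101-[Mn], and the skin genes had a median difference of -2.58 (8 of 9 lower). Red blood cell genes were at -1.51 (5 of 5 lower), fibroblast genes at -0.89 (5 of 5 lower), pericyte and smooth muscle genes at -0.46 (7 of 7 lower) and melanoma genes at 0.15 (6 of 7 higher), with 0 passing in each list. Apart from the skin covariate, their part in the member values was not tested.

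Against the empty framework, PS473@NKMOF-101-[Mn] tumors had lower values of all 9 tested members, with a median of -0.69 on the log2 scale, where all genes had -0.038. Pecam1 was at -1.08 (SE 0.67) and Tie1 at -1.02 (SE 0.49), and Cdh5 was at 0.502 times its empty framework level on the FPKM + 1 scale. The remaining members lay between -0.76 for Plvap and -0.30 for Egfl7. By limma, 0 of 9 passed at an adjusted p under 0.05 (0% of all genes) and 0 of 9 at an unadjusted p under 0.05 (2.3% of all genes). Tie1 was nearest to passing, with a limma adjusted p of 0.999. When only these 6 tumors were fitted, Cdh5, Flt1, Pecam1, Tie1 and Vwf had an unadjusted p under 0.05, 5 of 9 members where 3.4% of all genes did, and their limma adjusted p was 0.999. Pecam1, Cdh5, Flt1, Tie1 and Vwf, 5 of 10 members, lay without overlap below the empty framework, as 5.5% of the genes tested did, and 0 of 10 lay above it (2.41%). These genes share most of their variation, so the 5 are not 5 separate observations. Direction was the same for all 9 when any of the 6 tumors was left out, and Tie1 lay between -1.44 and -0.71. Fibroblast genes had a median of -1.20 in the same comparison (5 of 5 lower), pericyte and smooth muscle genes -0.72 (7 of 7 lower), leukocyte genes -0.71 (6 of 6 lower) and skin genes -0.80 (8 of 9 lower), with 0 passing in each list. Their part in the member values was not tested.

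**Figure D4:**
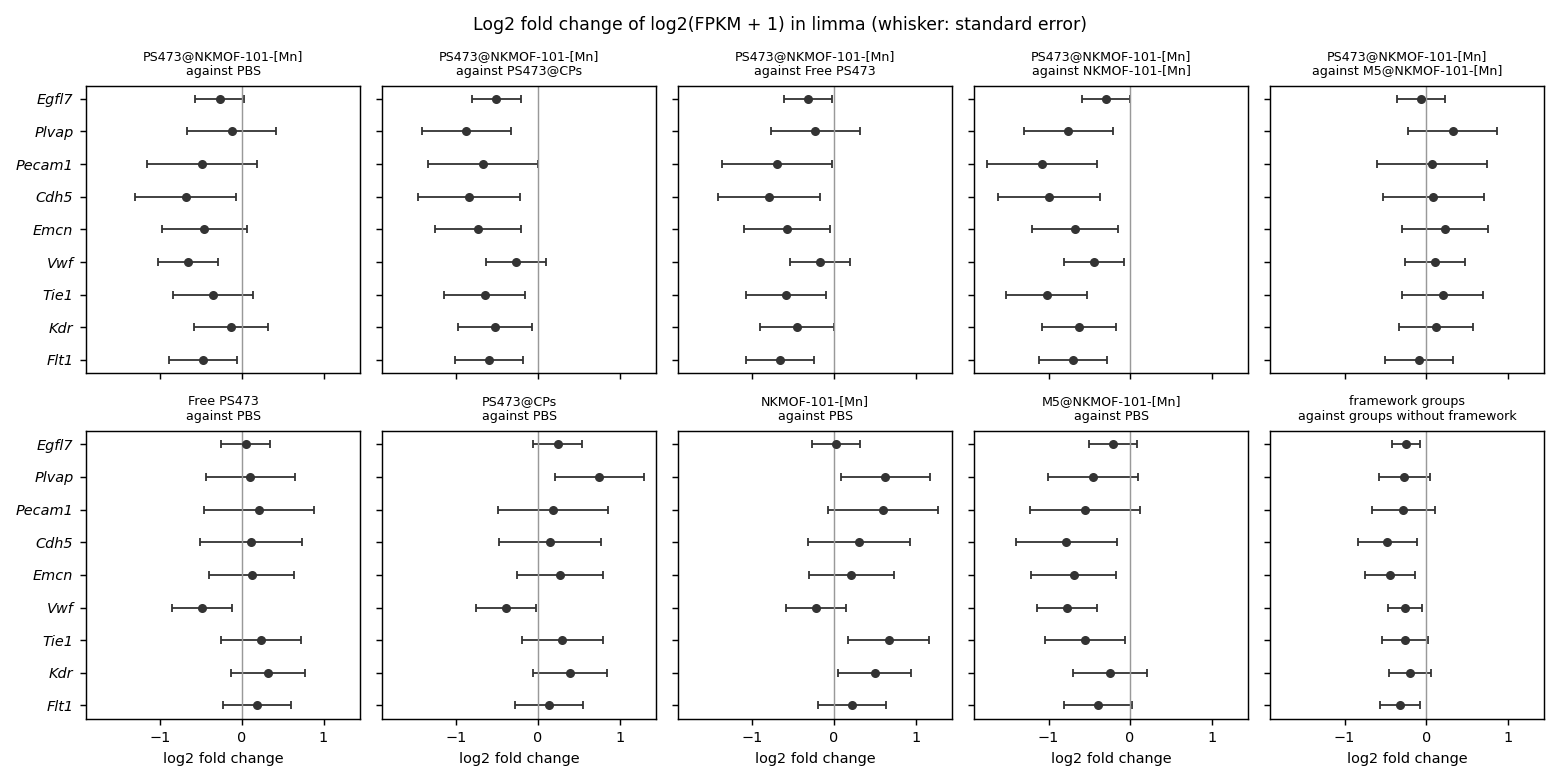
Log2 fold change (x axis, log2(FPKM + 1) scale) of the 9 tested members in each of the 10 comparisons, as points with the limma standard error as whiskers. All 9 points lie left of 0 for PS473@NKMOF-101-[Mn] against PBS, PS473@CPs, Free PS473 and the empty framework, and none of the values passed at an adjusted p under 0.05.

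The same treatment was compared with the other 2 ways of giving PS473. Against PS473@CPs, the 9 tested members had a median of -0.66 (all genes 0.0013), from -0.88 for Plvap to -0.27 for Vwf. By limma, 0 of 9 had an adjusted p under 0.05 (0% of all genes) or an unadjusted p under 0.05 (2.29%), and Egfl7 was nearest to passing at -0.51 (SE 0.30, limma adjusted p = 0.996). Tek was the 1 member of 10 lying lower without overlap (2.23% of the genes tested), and 0 of 10 lay higher (1.89%). The sizes rested in part on PS473@CPs tumor 2. Without it the median was -0.13, and Vwf and Kdr turned to 0.22 and 0.020. Without PS473@CPs tumor 1 the median was -1.04. Fibroblast genes had a median of -0.93 here (5 of 5 lower), pericyte and smooth muscle genes -0.62 (7 of 7 lower), skin genes -1.33 (9 of 9 lower), red blood cell genes 2.08 (5 of 5 higher) and melanoma genes 0.28 (6 of 7 higher), with 0 passing in each list. Their part in the member values was not tested.

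Against Free PS473, the median of the members was -0.58 (all genes -0.042) with 9 of 9 lower. Cdh5 was at -0.80 (SE 0.62), Flt1 at -0.66 (SE 0.42) and Tie1 at -0.59 (SE 0.49), and these 3 of 10 members lay lower without overlap, as 4.48% of the genes tested did, with 0 of 10 higher (2.34%). By limma, 0 of 9 passed at an adjusted p under 0.05 (0% of all genes) and 0 of 9 at an unadjusted p under 0.05 (4.98%). When only the 6 tumors compared were fitted, Cdh5 and Flt1 had an unadjusted p under 0.05 (2.33% of all genes). Without Free PS473 tumor 3, which was in the top 3 for 8 of 10 members, the median was -0.17. Red blood cell genes had a median of -2.18 (5 of 5 lower), whereas fibroblast genes were at 0.59 (5 of 5 higher), leukocyte genes at 0.48 (6 of 6 higher) and melanoma genes at 0.30 (7 of 7 higher), with 0 passing in each list, and their part was not tested. These 4 comparisons share the PS473@NKMOF-101-[Mn] tumors, so that their directions are not separate observations.

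The active and the inactive ribozyme were also compared within the same framework. With PS473 set against M5, which differs by mutations that inactivate it, the median of the members was 0.11 (all genes -0.0081), with 7 of 9 higher and 2 lower. By limma, 0 of 9 had an adjusted p under 0.05 (0% of all genes) or an unadjusted p under 0.05 (0.591%), and 0 of 10 members lay without overlap in either direction (2.32% of genes higher, 2.16% lower). The median was -0.11 without M5@NKMOF-101-[Mn] tumor 1 and 0.29 without tumor 2 of that group. Fibroblast genes had a median of 0.50 (5 of 5 higher), leukocyte genes -0.43 (6 of 6 lower) and red blood cell genes -1.27 (5 of 5 lower), with 0 passing in each list, and their part was not tested. The intervals were wide. For Cdh5 the difference was 0.090 with a 95% interval from -1.24 to 1.42, and for Egfl7, the most even member, -0.062 with an interval from -0.70 to 0.57. Differences of up to about these sizes in either direction are thus compatible with these values.

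Each other treatment was set beside PBS. Free PS473, PS473@CPs and the empty framework each had 8 of 9 tested members higher than PBS, by medians of 0.12, 0.24 and 0.30 (all genes 0.028, -0.0079 and 0.026), with Vwf the member that was lower each time, at -0.49, -0.40 and -0.22. By limma, 0 of 9 members passed at an adjusted p under 0.05 in each of the 3 comparisons (0% of all genes), and 0 of 9 at an unadjusted p under 0.05 (1.81%, 2.09% and 1.46% of all genes). No member was without overlap, where 3.37%, 1.93% and 4.52% of genes lay higher and 1.54%, 3.17% and 1.51% lower. These directions rested on single tumors. Without PS473@CPs tumor 2 the median for PS473@CPs was -0.33, without Free PS473 tumor 3 that for Free PS473 was -0.29, and without PBS tumor 1 the medians for Free PS473, PS473@CPs and the empty framework were -0.22, -0.15 and -0.054. Skin genes had medians of -2.82, -1.05 and -1.70 in these comparisons and red blood cell genes 0.64, -3.36 and -1.27, with 0 passing, and their part was not tested.

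M5@NKMOF-101-[Mn] tumors had lower values than PBS for 9 of 9 tested members, with a median of -0.55 (all genes -0.0072). Vwf was at -0.78 (SE 0.37, limma adjusted p = 0.999) and Cdh5 at -0.78 (SE 0.62). By limma, 0 of 9 passed at an adjusted p under 0.05 (0% of all genes) and 0 of 9 at an unadjusted p under 0.05 (1.51%), and 0 of 10 lay without overlap (4.75% of genes higher, 3.36% lower). When only the 6 tumors compared were fitted, Vwf alone had an unadjusted p under 0.05 (3.88% of all genes). The median was -0.20 without PBS tumor 2 and -0.88 without PBS tumor 1. Fibroblast genes had a median of -1.51 (5 of 5 lower), skin genes -2.61 (9 of 9 lower), pericyte and smooth muscle genes -0.48 (7 of 7 lower) and leukocyte genes 0.46 (6 of 6 higher), with 0 passing in each list, and their part was not tested. All 4 comparisons in this set share the PBS tumors, which differed among themselves by up to 7.59-fold for Pecam1.

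With the 9 tumors of the 3 framework groups set against the other 9, the tested members had a median of -0.27 (all genes -0.0056), with 9 of 9 lower. Cdh5 was at -0.48 (SE 0.36), Emcn at -0.44 (SE 0.30), Flt1 at -0.32 (SE 0.24), Egfl7 at -0.25 (SE 0.17) and Kdr at -0.20 (SE 0.26), with limma adjusted p-values of 0.90 to 0.92 over the 9 members. Again 0 of 9 passed (0% of all genes at an adjusted p under 0.05), and 0 of 9 at an unadjusted p under 0.05 (4.56%). Neither arm lay apart for any member, nor for any gene tested (0%). The contrast pools the empty framework, which was among the highest groups, with the loaded frameworks, which were the lowest. Direction held for all 9 members without any single tumor, and the median ranged from -0.41 without PS473@CPs tumor 1 to -0.11 without PS473@CPs tumor 2. Leukocyte genes had a median of 0.44 (6 of 6 higher), melanoma genes 0.21 (7 of 7 higher), skin genes -0.86 (8 of 9 lower) and fibroblast genes -0.24 (5 of 5 lower), with 0 passing in each list, and their part was not tested. The test for any difference among the 6 groups also called 0 of 9 members, with 0% of all genes at an adjusted p and 1.99% at an unadjusted p under 0.05, and Tie1 was nearest to passing (limma F test, adjusted p = 1.000).

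A further contrast, added after the values were seen, set the difference between PS473@NKMOF-101-[Mn] and the empty framework beside that between Free PS473 and PBS. The first minus the second had a median of -0.88 over the tested members (all genes -0.062), with 8 of 9 lower and Vwf at 0.044. Here too 0 of 9 passed in limma at an adjusted p under 0.05 (0% of all genes) and 0 of 9 at an unadjusted p under 0.05 (2.68%), and Tie1 was nearest to passing at -1.26 (SE 0.70, limma adjusted p = 1.000). With the skin mean as a covariate, Cdh5, Flt1, Kdr, Pecam1, Plvap and Tie1 had an unadjusted p under 0.05, 6 of 9 where 4.36% of all genes did, with a limma adjusted p of 0.999 for each. Without single tumors the median ranged from -1.22 (PBS tumor 2 left out) to -0.53 (PBS tumor 1 left out). Skin genes ran the other way in this contrast, with a median of 1.84 (9 of 9 higher), and 0 passed.

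The other lists gave no call in these comparisons either. Of the 11 tested pan-endothelial genes outside the members, 9 had lower values after PS473@NKMOF-101-[Mn] than after PBS and 10 than after the empty framework, with medians of -0.31 and -0.64. Tip cell and Notch genes were lower for 9 of 11 and 11 of 11, with medians of -0.50 and -0.62. Endothelial transcription factors were lower for 7 of 8 in both, with medians of -0.30 and -0.49. By limma, 0 genes of these lists passed at an adjusted p under 0.05 (0% of all genes). At an unadjusted p under 0.05 there was 1 tip cell and Notch gene in each of the 2 comparisons, and 0 in the other 2 lists. Of all genes, 2.1% had such a p against PBS and 2.3% against the empty framework.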

How the data were processed

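Poly(A)-enriched tumor RNA was sequenced for 18 tumors, 3 in each of 6 groups taken from the sample labels. The authors deposited FPKM values for 41079 genes with a gene length for each. The submitters' processing notes name the build GRCm39, and the aligner, the counting tool and the annotation are not given in the sources used here. The gene lengths were used only to recover depth: FPKM times length comes in steps worth 1 fragment, which gave 17212000 to 28401000 fragments for each tumor, although only 47.2% to 51.2% of low values were whole numbers of fragments within 0.01, so no count model was used. This number limits the precision of low genes and covers counting error only. No pair of the 153 tumor pairs held identical values. The 10 members, the 15 other lists and the motifs were chosen with earlier results of these data known.

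Values were log2 transformed with a pseudocount of 1, which understates changes of low genes, and 12357 genes, those averaging 1 FPKM or more, were fitted in limma 3.58.1 (R 4.3.3) with a mean for each group, a trended prior variance and Benjamini-Hochberg adjustment, threshold 0.05. The fit was tested on simulated data. The 10 contrasts, a moderated F test and, added after seeing the data, a contrast of the PS473 difference with and without the framework were made. Named genes were the members, the 2 genes of highest mean in each other list with any gene that passed (none did), and the 8 genes most correlated with the member mean. Other genes named were chosen after their values were seen. Alternatives were pseudocount, filter, scaling, prior, samples fitted, replicate block, threshold, each tumor left out and, added after seeing the data, the skin mean as a covariate. Protein sequences were not analysed here. Tables and figures were made in Python 3.11.15 with pandas 2.3.3, numpy 2.4.6 and matplotlib 3.10.9.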

Additional observations from a re-analysis of the deposited data

How the results depend on the processing

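The number of members called was 0 in all 10 comparisons, in the added contrast and in the F test, and it was 0 under each of the 229 alternative values computed, including an unadjusted p under 0.05 in the fit of all groups. Over all alternatives, 34 of 2085 member values had an unadjusted p under 0.05. The 2085 include the values of the main fit, repeated under the alternative thresholds, and none of those repeats was under 0.05. Of the 34, 9 came when only the groups compared were fitted, 5 of these against the empty framework (3.4% of all genes). Another 13 came with the skin mean as a covariate, 6 of these in the added contrast (4.36% of all genes). These values reuse the same 18 tumors and genes that varied together, and no share over all genes was worked out for the pooled count. The smallest limma adjusted p of a member was 0.658. All 181 alternative medians of the members moved by less than the SD of the member mean between tumors of a group (0.571), a yardstick larger than 7 of the 11 medians themselves. Of these alternative medians, 6 had the other sign, each with 1 tumor left out: Free PS473 against PBS (-0.29 and -0.22), PS473@CPs against PBS (-0.33 and -0.15), the empty framework against PBS (-0.054) and PS473 against M5 in the framework (-0.11). Of 714 alternative log2 fold changes, 11 changed sign. With the skin mean as a covariate, chosen after seeing the data, PS473@NKMOF-101-[Mn] against PBS gave 0.18 for Kdr, 0.046 for Pecam1, 0.27 for Plvap and 0.017 for Tie1. With each tumor left out in turn, that comparison ranged from -0.48 to 0.22 for Kdr, from -1.14 to 0.090 for Pecam1, from -0.55 to 0.19 for Plvap and from -0.81 to 0.0033 for Tie1, and the comparison with PS473@CPs ranged from -0.91 to 0.020 for Kdr and from -0.53 to 0.22 for Vwf. The cause was not tested. The replicate numbers do not pair the tumors: the deviations of same-numbered tumors correlated between -0.73 and 0.72, 18 of 45 pairs were above 0.1, and 6 of 18 tumors were closest to their own number. With a replicate block 0 members were called in every comparison. With 3 tumors in a group, the 95% interval of a Cdh5 difference was as wide as -1.24 to 1.42, and Tek was limited by 4 to 116 fragments in each tumor.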
